A study of Mus musculus with 2 samples.

Results

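Genes of blood clotting and of its dissolution were compared between untreated macrophages and macrophages treated with lipopolysaccharide (LPS), the glycolipid that coats Gram-negative bacteria. The group held 9 genes: F3, F10 and F13a1 of the clotting cascade, Thbd and Procr of the anticoagulant protein C pathway, Plau, Plaur and Serpinb2 of the plasminogen activator system, and Thbs1. Its members were all 13 probe sets that the annotation of the Affymetrix Mouse Genome 430 2.0 array assigns to exactly 1 gene, that gene being 1 of these 9 of the 18193 genes read in this way. The cells were bone-marrow-derived macrophages of C57BL6 mice, grown in RPMI with serum and macrophage colony-stimulating factor (M-CSF). Each condition has 1 array, with the same strain, tissue and culture for both, and the labels state neither the LPS dose and duration nor the number of mice. There was therefore no test and no replicate check, so that every value describes the 2 arrays and their number limits the precision. In RNA from a whole culture, fewer cells of a type and less RNA per cell cannot be told apart.

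As background, clotting in tissues starts when tissue factor, the product of F3, binds factor VII and the pair activates factor X, which F10 encodes and which converts prothrombin to thrombin. Thrombin makes fibrin, which factor XIII cross-links. Thrombomodulin and the endothelial protein C receptor, the products of Thbd and Procr, turn thrombin into an activator of the anticoagulant protein C, and urokinase bound to its receptor (Plau and Plaur) makes the plasmin that dissolves fibrin. Macrophages and monocytes are a known source of several of these proteins in inflamed tissue.

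The members differed between the arrays in both directions. F10, Procr, Plaur and Serpinb2 stood 2-fold or more higher with LPS, and Thbd and F13a1 stood 2-fold or more lower. Thbs1 lay within 2-fold, and Plau was under the floor on both arrays. F3 was at least 1.19-fold higher, which does not settle whether it passed 2-fold, and it was not counted as past it. The floor is each array's own median signal over non-control probe sets, 35.1 units on the control and 26.7 on the LPS array. A signal under it was set to it, and the fold is then written as at least N-fold. A gene was counted as measured if it reached the floor on at least 1 array, which 8 of the 9 members did. Of these 8, 4 (50%) were higher against 8.22% of all 11722 measured genes, and 2 (25.0%) were lower against 26.2% of all measured genes, so the share of lower members was near the background. The median log2 ratio (LPS over control) of the measured members was 1.34, and that of all measured genes was -0.42. The members were chosen with earlier results of these data known, so these differences from all genes are a description only.

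The median was -0.33 over the brighter 5861 measured genes and -0.52 over the dimmer 5861, and the cause of the negative values was not tested. The median log2 ratio was -0.05 for the RNAs that are spiked into the hybridization (SD 0.12 over 18 probe sets) and -0.29 for those spiked in before labelling (SD 0.23 over 24 probe sets). After centring on the median gene, 4 members were higher against 13.1% of genes and 1, Thbd, was lower against 15.3%. The direction of all 8 measured members was the same under each of the 5 scalings tried (quantile, median, loess and both sets of added controls).

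**Figure D1:**
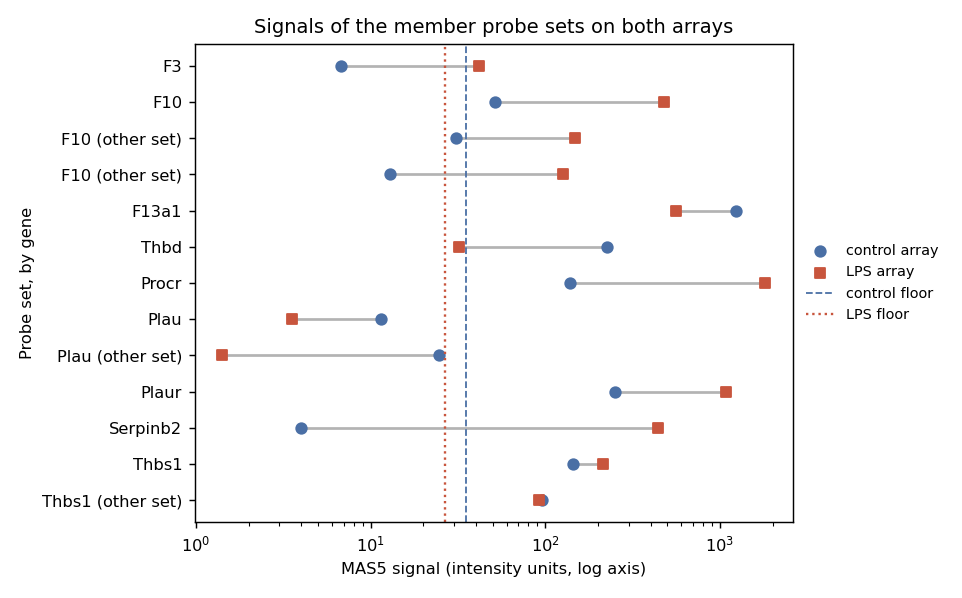
MAS5 signal (log axis, intensity units) of each of the 13 member probe sets on the control array (circles) and the LPS array (squares), with each array's floor as a vertical line. The LPS signals of F10, Procr, Plaur and Serpinb2 lie to the right of their control signals, those of Thbd and F13a1 to the left, and both Plau probe sets lie under the floors.

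RefSeq promoters (assembly GRCm38.p6) were at hand for 6 of the 9 members, and the 250 bases before the transcript start were searched on both strands. The sequences of Plaur, Procr, Serpinb2 and F3 are shown because they hold the AP-1 type motif TGANTCA, in capitals, and that of F10 because it was higher on the LPS array and holds no such match. For Serpinb2 the first of its 2 listed starts, which lie 87 bases apart, is shown.
Plaur (chr7:24462233-24462482, + strand): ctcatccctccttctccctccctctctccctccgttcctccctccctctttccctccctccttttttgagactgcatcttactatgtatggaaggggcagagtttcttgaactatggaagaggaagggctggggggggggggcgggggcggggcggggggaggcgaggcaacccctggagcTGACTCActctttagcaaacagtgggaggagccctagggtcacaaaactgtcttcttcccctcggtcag
Procr (chr2:155750967-155751216, + strand): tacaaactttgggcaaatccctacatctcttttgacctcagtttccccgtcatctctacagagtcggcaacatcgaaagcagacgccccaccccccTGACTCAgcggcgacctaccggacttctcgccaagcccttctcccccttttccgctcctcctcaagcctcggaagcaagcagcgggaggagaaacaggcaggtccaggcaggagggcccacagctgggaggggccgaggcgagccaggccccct
Serpinb2 (chr1:107511173-107511422, + strand): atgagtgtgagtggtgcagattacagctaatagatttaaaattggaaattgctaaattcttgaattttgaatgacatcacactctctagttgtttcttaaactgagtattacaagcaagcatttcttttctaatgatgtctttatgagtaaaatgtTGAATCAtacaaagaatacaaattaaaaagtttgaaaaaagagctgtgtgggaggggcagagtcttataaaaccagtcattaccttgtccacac
F3 (chr3:121723287-121723536, + strand): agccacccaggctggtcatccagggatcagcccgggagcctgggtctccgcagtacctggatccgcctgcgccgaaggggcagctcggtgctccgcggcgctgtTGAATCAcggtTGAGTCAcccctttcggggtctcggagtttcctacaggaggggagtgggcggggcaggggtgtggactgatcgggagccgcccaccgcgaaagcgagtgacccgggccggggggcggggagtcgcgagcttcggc
F10 (chr8:13037058-13037307, + strand): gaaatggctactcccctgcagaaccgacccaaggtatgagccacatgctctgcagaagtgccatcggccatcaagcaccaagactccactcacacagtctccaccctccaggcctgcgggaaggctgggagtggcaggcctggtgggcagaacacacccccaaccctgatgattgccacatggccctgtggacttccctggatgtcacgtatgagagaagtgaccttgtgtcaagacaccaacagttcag
The AP-1 type motif was present in 4 of the 6 members with a promoter, and in 7.82% of all 27025 genes with promoters of the same length, counting a gene once if any of its starts matched. Counted from the start, its matches ran from -69 to -63 in Plaur, from -154 to -148 in Procr and from -94 to -88 in Serpinb2. In F3 there were 2 matches, from -146 to -140 and from -135 to -129. The stricter spelling TGACTCA, or TGAGTCA on the other strand, which was added after these matches had been seen, left Plaur, Procr and F3 (3 members, against 5.16% of genes), since the Serpinb2 match reads TGAATCA.

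The other motifs searched were a loose NF-kB type motif (GGG and CC with any 5 bases between them) and its strict subset (GGG, any 2 bases, then TTTCC), TGACGTCA of the CRE type and TTGCNNAA of the C/EBP type. The loose NF-kB type motif matched F10, F3, Plaur and Procr (4 of 6), but also 48.7% of all genes and 66% of measured genes with a promoter, while the strict NF-kB type motif and TGACGTCA matched 0 of the 6 members. The C/EBP type motif matched Plaur, Procr and Serpinb2 (3 of 6) and 10.8% of all genes. In Procr its match overlapped a loose NF-kB type match, and the C/EBP type match of Serpinb2 lay at a different place for each of the 2 starts. Neither start of F13a1 held any of these motifs. These are matches of letters in a window, not measured binding.

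**Figure D2:**
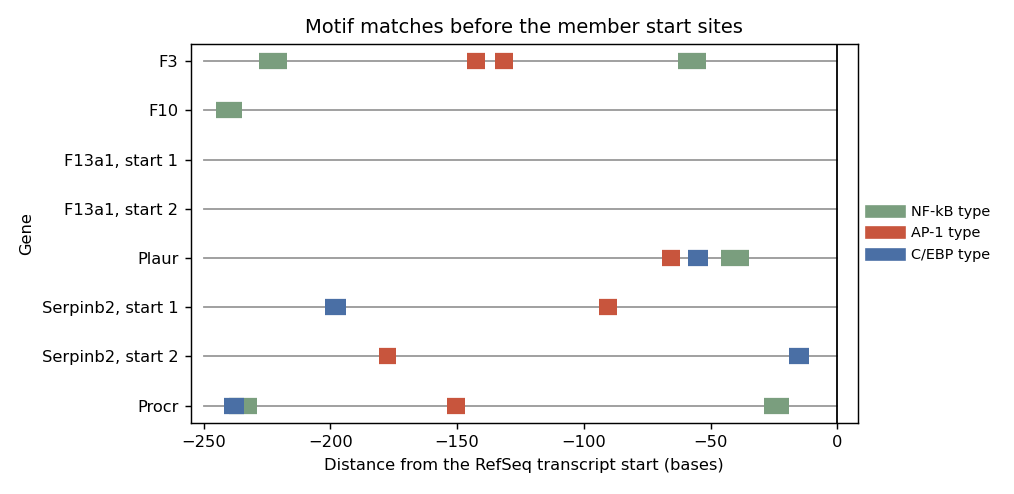
Places of the motif matches in the 250 bases before each RefSeq transcript start of the members (horizontal axis, distance from the start in bases), with the loose NF-kB type in green, AP-1 type TGANTCA in red and C/EBP type TTGCNNAA in blue. Plaur, Procr, Serpinb2 and F3 hold an AP-1 type match, and F13a1 holds no match at either start.

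Among the genes of the clotting cascade, F10 and F3 had the higher signal on the LPS array and F13a1 the lower. F10, which encodes the protease zymogen factor X, had a signal of 51.5 without LPS and 475 with it, 9.22-fold higher. A second probe set stood at 30.8 and 148 (at least 4.21-fold higher). The third stood at 12.9 and 127 (at least 3.61-fold higher). All 3 F10 probe sets were thus past 2-fold in the same direction, although the control signal of the brightest was only 1.47 times the floor and those of the others lay under it. Only 1.57% of measured genes had a higher ratio than F10.

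F3, which encodes the cell-surface initiator of clotting, was dim. Its single probe set read 6.79 without LPS, which is under the floor, and 41.8 with it, at the 59.0th percentile of the LPS array. The F3 transcript was thus at least 1.19-fold higher, a bound under the 2-fold limit that does not settle whether F3 passed it. The bound depends on where the floor is set: a floor at the 35th percentile of each array gave a log2 ratio of 1.32 and a pseudocount of 16 in place of a floor gave 1.34, both past 2-fold, whereas F3 was not measured when the 65th percentile was used.

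F13a1 encodes the catalytic A subunit of factor XIII, the transglutaminase that cross-links fibrin, and it is a known product of macrophages. It was bright on both arrays, with signals of 1228 in untreated and 558 in LPS-treated cells, 2.20-fold lower. The log2 ratio of -1.14 became -0.72 after median centring, -0.89 after loess and -0.85 after scaling to the controls added before labelling, all within 2-fold. Of the measured genes, 22.5% had a lower ratio.

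The 2 receptors of the protein C pathway stood on opposite sides. Procr, whose product presents protein C to the thrombin-thrombomodulin complex, read 138 in untreated and 1819 in LPS-treated cells, 13.2-fold higher. Procr had the highest ratio of the members measured on both arrays, and 1.07% of measured genes lay above it. It was read by a single probe set of a type (_s_at) whose probes can match several transcripts.

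Thbd, whose product thrombomodulin binds thrombin, read 227 in untreated and 31.9 in LPS-treated cells, 7.10-fold lower. Only 2.43% of measured genes had a lower ratio. The LPS signal was 1.20 times the floor, and a floor at the 65th percentile turned the log2 ratio of -2.83 into -1.92. The log2 ratios of Procr and Thbd differed by 6.55, a difference that multiplying an array by a single factor does not alter, and that was 6.30 after quantile normalization and 6.31 after loess.

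In the plasminogen activator system the receptor and the inhibitor were higher, while the activator was not measured. Plaur, which encodes the membrane receptor of urokinase, read 249 without LPS and 1075 with it, 4.32-fold higher. Its signal was well above the floor on both arrays, and its log2 ratio of 2.11 stayed between 2.04 and 2.53 under the 10 alternatives that gave it a value. Of the measured genes, 3.45% had a higher ratio.

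Serpinb2 encodes plasminogen activator inhibitor type 2, a clade b serpin that is made by activated monocytes and macrophages and inhibits urokinase. Its signal was 4.01 in untreated cells, which is under the floor, and 440 in LPS-treated cells, a difference of at least 12.6-fold. Because the control signal lies under the floor, the bound follows the floor: the log2 ratio of 3.65 became 4.72 for a floor at the 35th percentile and 2.28 for one at the 65th. It was past 2-fold under all 10 alternatives that gave it a value.

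Plau, which encodes urokinase itself, had signals of 11.5 and 3.54 by 1 probe set and 24.6 and 1.41 by the other, on the control and LPS arrays. All 4 values were under the floors, so no fold is given and no direction is read. Urokinase and its receptor therefore could not be compared here.

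Thbs1, which encodes thrombospondin-1, a matrix glycoprotein of platelets and macrophages that binds CD36 and CD47 and can activate latent TGF-beta, lay within 2-fold. Its brighter probe set went from 144 to 213, a log2 ratio of 0.56, and the other from 95.7 to 91.5, a log2 ratio of -0.07. The probe sets thus disagreed in sign. The brighter one reached 1.10 after quantile normalization and 1.18 after loess, past 2-fold. In addition, 1 probe set that the annotation lists with several genes, Thbs1 among them, was left out by the rule.

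**Figure D3:**
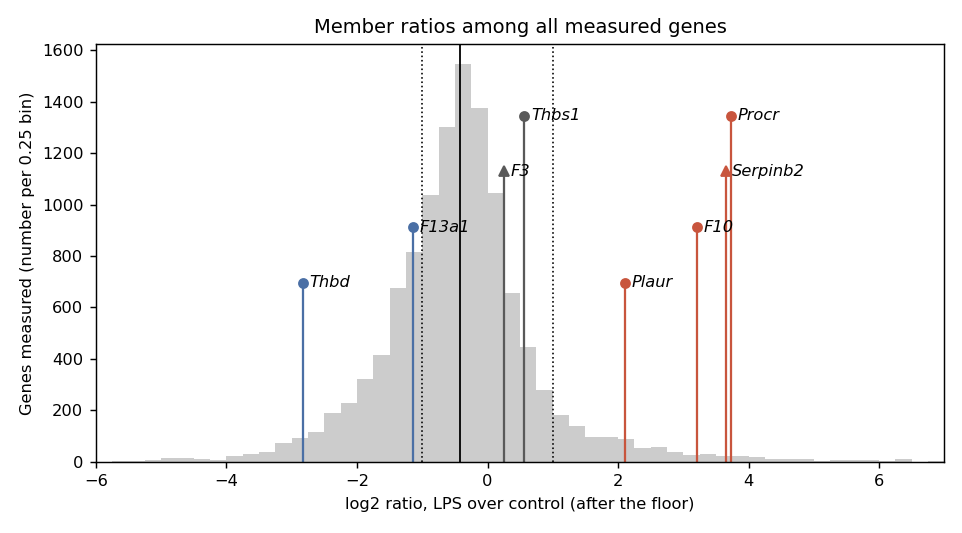
Number of measured genes (vertical axis) by log2 ratio of LPS over control after the floor (horizontal axis), with the measured members as stems, circles where both signals reached the floor and triangles where the ratio is a bound. The solid line is the median gene at -0.42 and dotted lines mark 2-fold. Procr, Serpinb2, F10 and Plaur lie in the right tail and Thbd in the left.

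Ordered by ratio, the members ran from Procr (log2 ratio 3.72) and Serpinb2 (at least 3.65) through F10 (3.21), Plaur (2.11), Thbs1 (0.56) and F3 (at least 0.25) to F13a1 (-1.14) and Thbd (-2.83). As a technical gauge only, the median SD of the log2 ratios of probe sets of the same gene was 0.28 over 4494 genes. Procr and Serpinb2 lie closer together than that, and, Serpinb2 being a bound, their order is not settled. F3 is a bound as well, so its place below Thbs1 is not settled either.

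The genes with the most similar ratio among the 9821 other genes whose signals both reached the floor were named for each member past 2-fold that was measured on both arrays. Likeness over 2 arrays is a single difference of ratios and carries little information. The nearest were Fgl2 for Procr (log2 ratio 3.72), St3gal1 for F10 (3.21), Bfar for Plaur (2.11), Anapc16 for F13a1 (-1.14) and Scd2 for Thbd (-2.83).

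**Figure D4:**
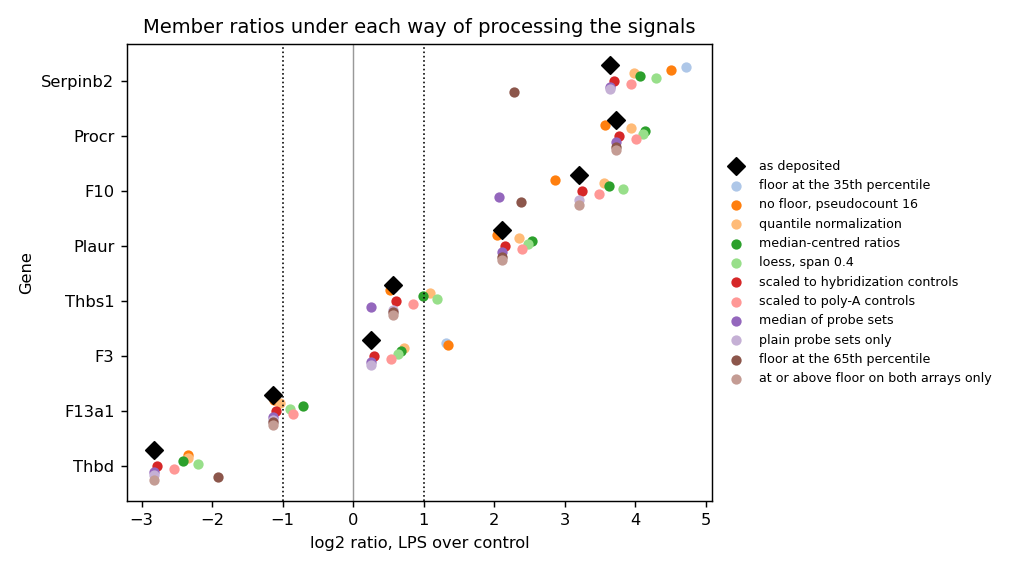
log2 ratio of LPS over control (horizontal axis) of each measured member as deposited (black diamonds) and under each alternative that gave a value (coloured circles), with dotted lines at 2-fold. Serpinb2, Procr, F10 and Plaur stay above 2-fold higher and Thbd stays past 2-fold lower throughout, while Thbs1, F3 and F13a1 fall on both sides of a dotted line.

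Other genes of clotting, fibrinolysis and the serpin family were taken from 7 lists of 86 genes. Of these, 74 had a probe set of 1 gene. By the probe set that stands for each gene (the one with the highest mean log2 signal of its gene), 33 were measured and 41 were not. Of the 41, Masp1 (63.7 and 6.66) and Tgm3 (38.1 and 6.70) each had another probe set that reached the floor without LPS. Of the 33, 3 stood 2-fold or more higher and 6 stood 2-fold or more lower, with a median log2 ratio of -0.35. These are 9.09% and 18.2% of the 33, beside 8.22% and 26.2% of all measured genes. After median centring 7 (21.2%) were higher and 3 (9.09%) lower, beside 13.1% and 15.3%. The counts of the separate lists below, of 2 to 6 measured genes each, stand beside these same shares of all measured genes.

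Of 6 measured coagulation factors and thrombin receptors, 0 were higher and 1 was lower (median log2 ratio -0.12, which turned positive under some scalings). Most factors that the liver makes, among them F2, F5, F12 and the fibrinogen genes Fga, Fgb and Fgg, were under the floor on both arrays. F7, whose product is the partner of tissue factor, read 130 without LPS and 146 with it. The lower gene was Vwf, which encodes von Willebrand factor, the platelet-tethering protein of endothelium and megakaryocytes, at 769 on the control and 91.7 on the LPS array, 8.38-fold lower. F9 read 54.8 and 27.4, just inside 2-fold, and F2rl2 had a log2 ratio of -0.35, which turned positive under some scalings. The thrombin receptor gene F2r, at 6.54 without LPS, which is under the floor, and 65.9 with it, was at least 1.88-fold higher and past 2-fold under 4 of the 5 scalings.

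In the list of anticoagulant proteins and the protein C pathway, 5 genes were measured, 0 were higher and 1 was lower (median -0.53). The lower gene was Gas6, which encodes a vitamin K-dependent ligand of the receptors Axl and Mertk and not an anticoagulant. The other 4 were not counted as past 2-fold. Gas6 was at 5087 and 1999, 2.54-fold lower. It was past 2-fold under 4 of the 5 scalings and within 2-fold after median centring. A dimmer Gas6 probe set read 112 and 21.5, the latter under the floor, at least 4.20-fold lower. Pros1, the gene of the protein C cofactor protein S, had a log2 ratio of -0.91. Tfpi, the gene of the inhibitor of the tissue factor-factor VII complex, had a log2 ratio of -0.53 that turned positive under 1 of the 5 scalings, and its 4 probe sets ran from -1.12 to -0.53. Serpind1 had signals of 3.26, under the floor, and 29.6 with LPS. The latter lies over the LPS floor but under the control floor, so no fold is given. Proc, the gene of protein C itself, was under the floor on both arrays.

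Among 5 measured genes of plasminogen activation, 1 was higher and 0 lower (median 0.15, which turned negative under a scaling). That median is the value of S100a10, whose 3 probe sets ran from -0.78 to 0.15 and thus disagreed in sign. Plat, which encodes the tissue-type plasminogen activator, read 19.4 without LPS, which is under the floor, and 134 with it, at least 3.83-fold higher. The remaining Plat probe set, with 26.5 and 25.3, did not reach the floor. The plasminogen-binding annexin gene Anxa2 had a log2 ratio of 0.44, the plasminogen receptor gene Plgrkt -0.45 and Lrp1, which encodes a receptor that clears protease-inhibitor complexes, -0.77. A dimmer Lrp1 probe set read 170 and 58.8, 2.90-fold lower. Plg, the plasminogen gene, was under the floor on both arrays.

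The relatives of Serpinb2 in clade b gave mixed values. Of 6 measured intracellular serpins of that clade, 0 were higher and 3 (50%) lower (median -0.99), beside 8.22% and 26.2% of all measured genes. After median centring 1 was higher and 1 lower (16.7% each), beside 13.1% and 15.3%. Serpinb6b was at 327 and 82.7, 3.95-fold lower, and past 2-fold under all 5 scalings. Serpinb6a and Serpinb8 were 2.01-fold and 2.10-fold lower, but within 2-fold after median centring. Serpinb6a was past 2-fold under 2 of the 5 scalings and Serpinb8 under 1. Serpinb1a, the gene of a neutrophil elastase inhibitor, had a log2 ratio of -0.97 and Serpinb9 of 0.01. Serpinb9b, at 8.51 under the floor and 61.1, was at least 1.74-fold higher and past 2-fold under 4 of the 5 scalings. No difference between Serpinb2 and this list was tested.

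Of the 2 measured serpins of other clades, 0 were past 2-fold. Serping1, which encodes the C1 inhibitor, was at 22.7 under the floor and at 49.6, at least 1.41-fold higher. Serpinf1 had a log2 ratio of -0.25, which turned positive under 4 of the 5 scalings. Of 5 measured thrombospondin family and receptor genes, 1 was higher and 1 lower (median 0.66). That median is the bound of Itgb3, the integrin beta 3 gene, and with the other Itgb3 probe set, which was past 2-fold lower, the median was -0.67. Itgav, the gene of the integrin alpha v chain, was at 1690 and 5877, 3.48-fold higher, with 3 probe sets measured on both arrays, from 0.95 to 2.28 on the log2 scale. Scarb1, a scavenger receptor gene of the CD36 family, was at 1158 and 431, 2.68-fold lower. The thrombospondin receptor genes Cd47 and Cd36 had log2 ratios of 0.87 and -0.67, Cd47 passing 2-fold under 2 of the 5 scalings. The 5 Cd47 probe sets ran from -0.28 to 0.87 and thus disagreed in sign.

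Of 4 measured genes of the vitamin K cycle and of transglutaminases, 1 was higher and 0 lower (median -0.71). Tgm2, which encodes tissue transglutaminase, an enzyme of the same family as factor XIII, was at 503 and 2161, 4.30-fold higher, with 5 measured probe sets from 1.78 to 2.10 on the log2 scale. It thus stood opposite to F13a1. All 5 measured Tgm2 probe sets are of the _x_at or _a_at type, so plain probe sets alone gave Tgm2 no value. Ggcx, the gene of the carboxylase that modifies factor X and other clotting proteins, had a log2 ratio of -0.71, and the vitamin K reductase genes Vkorc1 and Vkorc1l1 had -0.70 and -0.77. The other Vkorc1l1 probe set read 153 and 44.8, 3.43-fold lower.

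**Figure D5:**
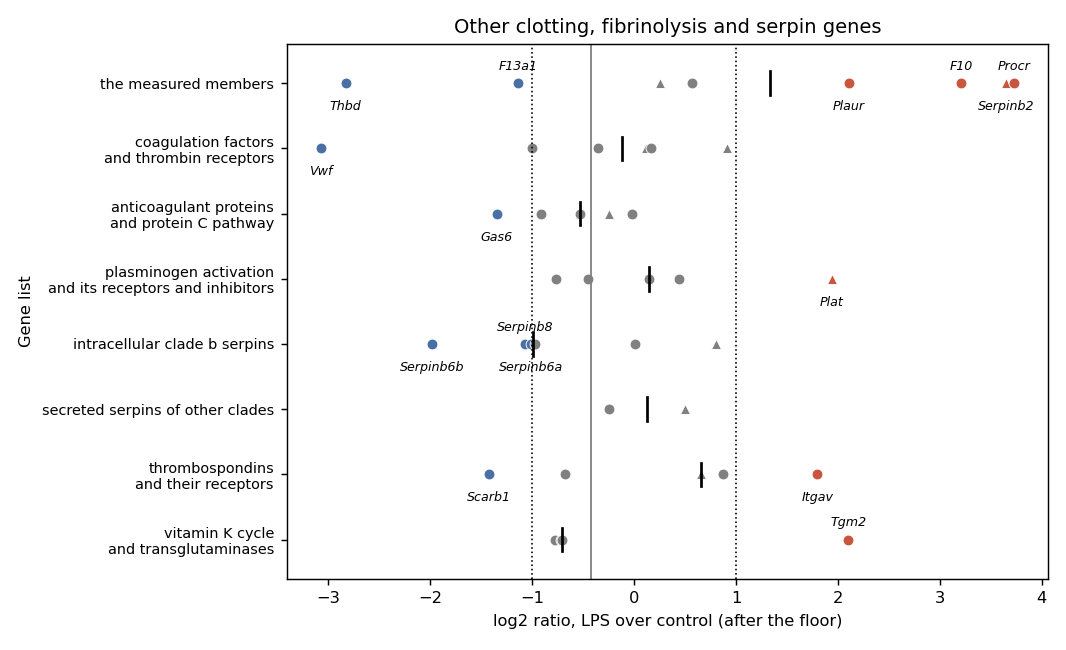
log2 ratio of LPS over control after the floor (horizontal axis) of each measured gene of the members and of the 7 lists (rows), with circles where both signals reached the floor, triangles where 1 did, red for genes past 2-fold higher and blue for genes past 2-fold lower. Black bars are list medians and the grey line is the median gene at -0.42. The members' median of 1.34 lies to the right of the 7 list medians, which run from -0.99 to 0.66. The 0.66 is the bound of Itgb3 by 1 of its 2 probe sets. With plain probe sets alone (not _s_at, _x_at or _a_at) the members' median was 0.41. The members and lists were chosen with earlier results of these data known, and the difference between their medians was not tested.

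The cells carried macrophage markers. All 8 listed macrophage genes, Csf1r, Adgre1 and Cd68 among them, reached the floor on both arrays, with signals from 1094 to 9710 on the control and from 654 to 10273 on the LPS array. Thbd, Procr and Vwf are also genes of endothelium. Of 7 endothelial markers 3 reached the floor on an array, with a summed signal of 163 on the control and 319 on the LPS array. Kdr was at 63.8 and 225, 3.53-fold higher, and Cldn5 at 41.2 and 26.0, which is under the floor. Cdh5 was at 15.7, under the floor, and at 29.8 with LPS. The latter lies over the LPS floor but under the control floor, so no fold is given. Tek, Tie1, Esam and Emcn were under the floor on both arrays. Without Kdr the sums were 98.9 and 93.7.

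Platelets and megakaryocytes carry Thbs1, F13a1 and Vwf. Of 6 such markers with a probe set, 4 reached the floor on an array, with a summed signal of 320 on the control and 207 on the LPS array, and Treml1 was at 90.2 and 31.1, 2.90-fold lower. Gp1bb and Gp9 were under the floor on both arrays. Of 6 fibroblast, 5 neutrophil and 5 mast cell markers with a probe set, 1 each reached the floor on an array. The part of these cells in the values of the members was not tested.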

How the data were processed

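Total RNA of 1 control and 1 LPS-treated culture was read on 2 arrays, grouped by their titles in the labels. The deposited values are signal intensities on a linear scale, which the authors computed by MAS5 according to the submitters' processing notes. The version of MAS5, its scaling target, its detection calls and a genome build are items not given in the sources used here. Among 45101 probe sets 64 were array controls, 34945 had 1 gene, 932 several genes and 9160 no gene listed. All 9 member symbols matched the RefSeq table by gene identifier. A gene was represented by its brightest probe set (mean of both log2 signals), and ratios are log2 LPS minus log2 control after the floor. They were computed in Python 3.11.15 with pandas 2.3.3, numpy 2.4.6 and statsmodels 0.14.6 (loess). The steps were also run on simulated data, with changes planted only in genes bright on the control array and no common shift between arrays. Recovery of changes in genes near the floor was therefore not checked. With 1 array per condition genes were counted by size, 2-fold.

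The members and lists were chosen with earlier results of these data known. The named genes are all members with all probe sets, up to 4 measured genes per list by size of ratio plus the gene that most opposed the list's median, and the nearest gene in ratio for members past 2-fold and measured on both arrays. Other genes were named after their values were seen. Alternatives were a floor at the 35th or the 65th percentile, no floor but a pseudocount of 16, 5 scalings, the median over the probe sets of a gene, plain probe sets alone (not _s_at, _x_at or _a_at), genes that reached the floor on both arrays, and thresholds of 3-fold and 1.5-fold.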

Additional observations from a re-analysis of the deposited data

How the results depend on the processing

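No paired analysis was possible because each condition has 1 array. All 8 measured members kept their direction under every alternative that gave them a value, and F10, Procr, Plaur, Serpinb2 and Thbd also stayed past 2-fold. The count of higher members was 2 of 6 in place of 4 of 8 with plain probe sets alone, which leave out Plaur and Procr (beside 8.09% of all genes). It was 5 of 8 with a floor at the 35th percentile (beside 8.15%), the pseudocount (9.03%), quantile normalization (11.7%) and loess (12.7%). It was 3 of 6 for genes that reached the floor on both arrays (8.42%). The count of lower members was 1 in place of 2 after median centring (beside 15.3% of all genes), loess (14.1%), poly-A scaling (to the control RNAs added before labelling, 18.2%) and at 3-fold (12.2%). F13a1 lay within the limit in each of these cases. The members' median of 1.34 became 1.71 and 2.11 with floors at the 35th and 65th percentile, 1.69 with the pseudocount, 1.73 after quantile normalization, 1.76 after median centring, 1.83 after loess, 1.63 after poly-A scaling and 0.41 with plain probe sets alone. Of the other listed genes, 3 of 33 were higher as deposited, beside 8.22% of all genes. With a floor at the 35th percentile 7 of 50 were higher, beside 8.15% of all genes. The count was 7 of 33 with the pseudocount (beside 9.03% of all genes), after median centring (13.1%) and at 1.5-fold (13%). It was 6 of 33 after quantile normalization (beside 11.7% of all genes), loess (12.7%) and poly-A scaling (11%). Of the same lists, 6 of 33 genes were lower as deposited (beside 26.2% of all genes) and 3 of 33 after median centring (beside 15.3%). With the median of probe sets 9 of 35 measured genes were lower (beside 25.3% of all genes). There were 2 at 3-fold (6.06%, beside 12.2% of all genes) and 14 at 1.5-fold (42.4%, beside 42% of all genes). Of all genes past 2-fold, 23.9% were higher as deposited, 46.2% after median centring, 42.8% after quantile normalization, 47.3% after loess and 37.7% after poly-A scaling. The cause of these differences was not tested, beyond the genes that an alternative leaves out. Signal over background limits F3, Serpinb2 and Plau, whose control signals were under the floor, and no value has a replicate.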

Other observations

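Across all measured genes with a RefSeq promoter, the motif that 4 members share was present before the start of 8.19% of 781 genes past 2-fold higher with LPS, 4.67% of 2504 genes past 2-fold lower and 5.94% of 6210 genes within 2-fold. The C/EBP type motif was present in 13.7%, 8.51% and 8.78% of the same groups. The strict NF-kB type motif, which no member held, was present in 3.07%, 1.48% and 1.85%, whereas the loose one stood at 67.3%, 69.2% and 64.5%. These shares describe genes of 2 arrays and were not tested.

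Itgb3, which encodes the beta 3 chain that pairs with integrin alpha v, gave unlike values by its probe sets, chosen here after they were seen. The probe set that stood for the gene went from 10.5, under the floor, to 55.4, a log2 ratio of at least 0.66, and the other from 107 to 2.40, which is under the floor and past 2-fold lower.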
